A study of Mus musculus with 10 samples.

Results

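Mitogen-activated protein kinase (MAPK) feedback and stress-response genes were described by their p65 binding: Dusp1, Dusp2, Dusp4, Dusp5 and Dusp6, Spry1 and Spry2, and Gadd45a, Gadd45b and Gadd45g. These are 10 of the 21887 protein-coding genes considered. A peak was taken as theirs when its summit lay inside the gene, or within 50 kb with that gene as the nearest protein-coding gene body in mouse build mm10. By this rule 76 of the 26132 peak entries of the series belonged to the 10 genes. Signals from the T cell receptor pass through kinase cascades that end in the MAPKs ERK, JNK and p38. The dual-specificity phosphatases (Dusp) remove the activating phosphates from these kinases, Sprouty proteins (Spry) restrain the step from receptors to Ras and ERK, and Gadd45 proteins are small stress-induced proteins that bind kinases upstream of p38 and JNK. Many of these genes are switched on by the pathways they control, so their products act as feedback.

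The protein p65 (RelA) is part of the transcription factor NF-kB, and its binding was measured by chromatin immunoprecipitation and sequencing in T cells from spleen and lymph nodes of C57BL/6 mice. The 4 groups were stimulated Treg, stimulated Tconv, unstimulated Treg and unstimulated Tconv, where Treg are regulatory and Tconv conventional T cells. Stimulation was 3 h with plate-bound antibody against CD3 and soluble antibody against CD28, with IL-2 at 10 ng/ml for Treg and 2 ng/ml for Tconv. IL-2 and cell type therefore cannot be told apart between the stimulated groups, and the culture of the unstimulated cells was not given in the sources used here. No allele beyond the strain, number of animals or sorting gate was given, and the peak lists hold no marker expression with which to check the cell labels. Each group had 2 libraries, and 2 further libraries were input chromatin mixed from both cell types and both states.

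The authors' files hold 1 peak list per group, called on its 2 libraries jointly, which leaves neither a spread over replicates nor a test across groups. Overlapping entries were merged into regions: 11077 in stimulated Treg, 5734 in stimulated Tconv, 3208 in unstimulated Treg and 2961 in unstimulated Tconv. Each region carries the fold enrichment over local background that the authors' peak caller gave at its strongest summit, meaning the one with the highest -log10 p. Fold enrichment and rank are read within a list, because read depth is unknown and each list has its own lower limit. The weakest entry had a -log10 p of 26.6 in stimulated Treg, 38.1 in stimulated Tconv, 15.1 in unstimulated Treg and 13.3 in unstimulated Tconv.

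After stimulation, 8 of the 10 genes had a p65 region in both cell types, and without stimulation 3 of 10 had one. In stimulated Treg, 8 genes held 32 regions, where 25.2% of all protein-coding genes had at least 1. In stimulated Tconv, the same 8 genes held 18 regions, where 16.5% of all genes had one. In unstimulated Treg, 3 genes (Dusp1, Dusp5 and Gadd45b) held 4 regions, where 13.4% of all genes had one. In unstimulated Tconv, 3 genes (Dusp1, Dusp2 and Dusp5) held 3 regions, where 12.5% of all genes had one. Spry2 and Gadd45a had no region in any of the 4 lists. The 10 genes were proposed for description with earlier results of these data in view, so their counts are descriptions of these lists.

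**Figure D1:**
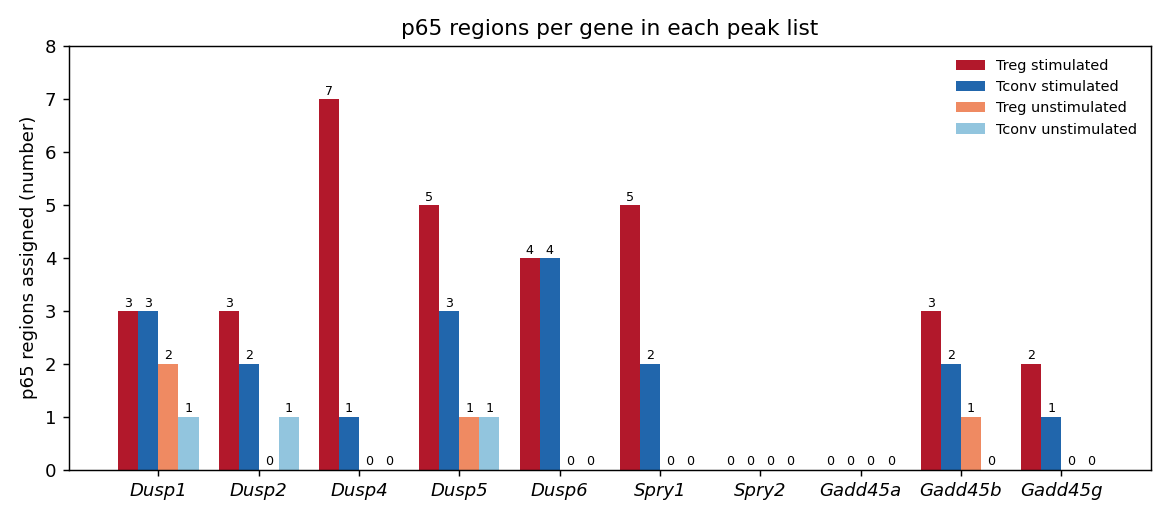
Number of merged p65 regions assigned to each of the 10 genes (horizontal axis) in the 4 peak lists, as bars with the number on top. Dusp4 has 7 regions in stimulated Treg and 1 in stimulated Tconv, Dusp1 and Dusp6 have as many in stimulated Tconv as in stimulated Treg, and Spry2 and Gadd45a have 0 in every list.

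Most of these regions were found in the stimulated lists alone. In stimulated Treg, 28 of the 32 regions (87.5%, 95% Wilson interval 71.9 to 95.03%) had no overlapping region in unstimulated Treg, against 77.3% of all stimulated Treg regions. In stimulated Tconv, 15 of the 18 regions (83.3%, 60.8 to 94.2%) had none in unstimulated Tconv, against 67.4% of all stimulated Tconv regions. Both intervals include the value for all regions, and they cover counting error alone, since neighbouring regions of a gene are not independent. In the other direction, 0 of 4 unstimulated Treg regions and 0 of 3 unstimulated Tconv regions lacked a stimulated counterpart, where 21.6% and 36.3% of all regions of those lists did. Dusp4, Dusp6, Spry1 and Gadd45g had regions in both stimulated lists and in neither unstimulated list. How many of all genes share this pattern was not computed. In Treg, 5 of the 10 genes were listed only after stimulation, against 14.4% of all genes. In Tconv, 5 of the 10 were, against 8.16%. Only without stimulation, 0 of the 10 were listed in either cell type, against 2.68% of all genes in Treg and 4.18% in Tconv. The stimulated lists were also the longer ones, so these counts are not read as a trait of these genes.

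All 7 unstimulated regions had a fold enrichment below the median of their list. In Treg the Dusp5 region was above 45.7% of the list and the Gadd45b region above 38.5%, so both were near its middle, and the 2 Dusp1 regions were above 11.1% and 13.5%. In Tconv the 3 regions were above 4.53 to 12.4% of the list. The 4 in Treg had a median of 6.49-fold, against 8.30-fold over the whole list, and the 3 in Tconv a median of 5.45-fold, against 8.49-fold. The stimulated regions of the 10 genes had a median of 13.8-fold in Treg, where all regions had 11.5-fold, and 13.6-fold in Tconv, where all regions had 12.8-fold. These medians hide a wide range, which ran from 7.57-fold to 89.5-fold in stimulated Treg and from 9.54-fold to 61.4-fold in stimulated Tconv.

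**Figure D2:**
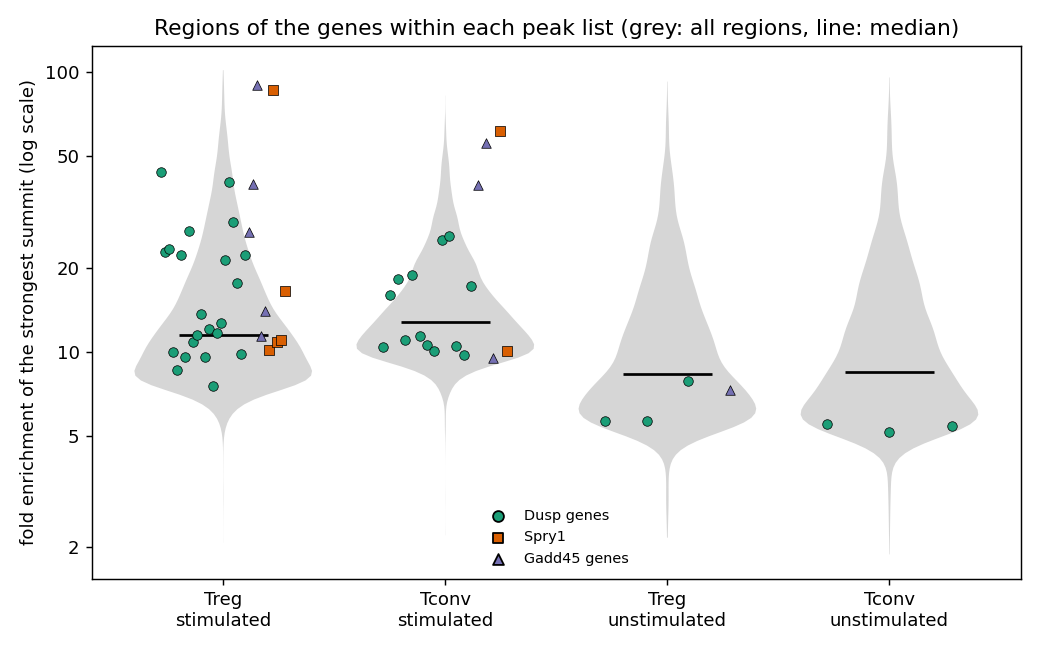
Fold enrichment over local background at the strongest summit of each region (vertical axis, log scale) in the 4 peak lists; grey shapes show all regions of a list with the median as a line, and points show the regions of the 10 genes by family. The points for Spry1 at 86.1-fold and Gadd45b at 89.5-fold in stimulated Treg, and at 61.4-fold and 55.6-fold in stimulated Tconv, stand at the top of the lists, and all points of the unstimulated lists lie below the median line.

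Among the phosphatases, Dusp1 encodes a nuclear, immediate-early phosphatase that acts on p38 and JNK. It lies on chromosome 17 from 26505591 to 26508472, on the minus strand, and was, with Dusp5, 1 of the 2 genes with a region in all 4 lists. When overlapping regions of the 4 lists were joined into sites, 2 of the 32 sites of the 10 genes (6.25%) were in all 4. Over all genes and distances this share was higher, at 13.8% of sites. A promoter region was present in all lists, with a fold enrichment of 22.7 in stimulated Treg, 15.9 in stimulated Tconv, 5.67 in unstimulated Treg and 5.54 in unstimulated Tconv. Its summit lay 92 bases upstream of the transcription start in stimulated Treg and 106 bases upstream in stimulated Tconv. In the unstimulated lists the summit lay inside the gene instead, 147 bases after the start in Treg and 202 bases after it in Tconv. A region 2.52 kb beyond the 3′ end was 23.2-fold in stimulated Treg, 18.2-fold in stimulated Tconv and 5.64-fold in unstimulated Treg, and was not listed in unstimulated Tconv. It lies on the side of Neurl1b. The strongest Dusp1 region of the Treg list lay 22.5 kb upstream, in the 52.3 kb between Dusp1 and Ergic1. There it was 43.8-fold in stimulated Treg, above 96.9% of that list, and 10.4-fold in stimulated Tconv, above 23.3% of that list. Within Treg this upstream site outranked the promoter, while within Tconv it was the weakest of the 3 Dusp1 regions.

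The Dusp1 and Dusp5 promoters are shown because a p65 region covered them with and without stimulation. Of the unstimulated summits, only a Dusp5 summit of Treg, 79 bases upstream of the start, lay in the stretches shown. Capitals mark the only matches to the motifs searched in them: the cyclic-AMP response element letters TGACGTCA in Dusp1, and, in Dusp5, a pair of adjacent CArG boxes, the element bound by serum response factor. Both are the 250 bases before the start from RefSeq, build GRCm38.p6, written 5′ to 3′ on the strand of the gene.
Dusp1 (chr17:26508473-26508722, minus strand): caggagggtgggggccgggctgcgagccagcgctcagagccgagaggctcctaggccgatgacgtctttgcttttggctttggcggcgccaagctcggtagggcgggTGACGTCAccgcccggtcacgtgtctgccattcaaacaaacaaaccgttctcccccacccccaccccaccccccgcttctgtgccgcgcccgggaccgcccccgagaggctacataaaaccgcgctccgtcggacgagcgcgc
Dusp5 (chr19:53528895-53529144, plus strand): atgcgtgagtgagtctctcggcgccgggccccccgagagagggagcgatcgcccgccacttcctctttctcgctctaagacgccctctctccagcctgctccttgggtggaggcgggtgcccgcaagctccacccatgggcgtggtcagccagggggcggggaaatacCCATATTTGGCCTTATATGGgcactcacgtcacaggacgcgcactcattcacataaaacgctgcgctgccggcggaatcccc
The TGACGTCA match began at -143 bases from the Dusp1 start, and 1.79% of the 32851 promoter windows of the table, each from 250 bases before to 50 after a start, hold these letters on either strand. The CArG boxes began at -82 and -72 bases from the Dusp5 start, and 1.63% of all windows hold one. The CArG box was searched after the sequence had been seen. The NF-kB consensus occurs in 8.46% of all windows and the AP-1 letters TGANTCA in 7.81%, and neither was present in the windows of the 9 genes with a promoter entry. That says only that these letters are not in these windows.

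Dusp5 encodes a nuclear phosphatase selective for ERK and lies on chromosome 19 from 53529145 to 53541809. Its promoter region was likewise in all 4 lists, with 12.7-fold in stimulated Treg, 10.6-fold in stimulated Tconv, 7.85-fold in unstimulated Treg and 5.45-fold in unstimulated Tconv. In the stimulated lists its promoter was not the strongest site. Inside the gene, 10.4 kb after the start, a region reached 40.5-fold in stimulated Treg (above 96.0% of the list) and 25.1-fold in stimulated Tconv (above 90.6%). A second region, 7.76 kb after the start in Treg, was 21.2-fold in stimulated Treg and 10.04-fold in stimulated Tconv. Neither intragenic region had an unstimulated counterpart. Stimulated Treg listed 2 further regions without a Tconv counterpart, 9.03 kb (11.7-fold) and 21.6 kb (7.57-fold) upstream on the side of Smndc1, the last of which had the lowest fold enrichment of the 32 stimulated Treg regions.

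Dusp2 encodes a nuclear phosphatase known from activated lymphocytes and lies on chromosome 2 from 127336159 to 127338377. Stimulated cells of both types had 1 broad region over it, 7198 bp wide in Treg and 8817 bp wide in Tconv, which reached into the neighbouring gene Astl, whose body begins 0.262 kb away. In Treg this region held 5 summits, from 8.45-fold to 22.2-fold. In Tconv it held 3, of 18.7-fold, 18.4-fold and 17.4-fold. Each Tconv summit lay 8 to 15 bases from a Treg summit, at 148, 700 and 1959 bases upstream of the start in Tconv and 156, 689 and 1974 bases in Treg. The unstimulated Tconv list had 1 summit, 160 bases upstream and 5.17-fold, and unstimulated Treg had none. The nearest unstimulated Treg region lay 21.5 kb from Dusp2, was 11.1-fold, and was assigned to Stard7 as the nearer gene. The single unstimulated Tconv entry of Dusp2 had a -log10 p of 13.3, the lowest of its list, while the unstimulated Treg list ends at 15.1. Farther upstream the stimulated lists parted: Treg had regions 11.6 kb (8.58-fold) and 12.4 kb (9.95-fold) away, and Tconv had 1 region 16.9 kb away (11.04-fold). This last region was the only one of the 18 stimulated Tconv regions without a stimulated Treg counterpart (5.56%, where 4.15% of all stimulated Tconv regions had none).

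Dusp6 encodes the cytoplasmic, ERK-selective phosphatase and lies on chromosome 10 from 99263231 to 99267489. All 4 of its regions were present in both stimulated lists and in neither unstimulated list. The promoter region was 22.2-fold in stimulated Treg and 17.2-fold in stimulated Tconv. The strongest region lay 20.9 kb upstream, on the side of Poc1b, with 29.1-fold in stimulated Treg and 25.9-fold in stimulated Tconv. Regions 18.04 kb and 1.37 kb upstream were 17.6-fold and 9.81-fold in stimulated Treg, and 10.4-fold and 9.70-fold in stimulated Tconv. The order of the 4 sites by fold enrichment was the same in both stimulated lists. The nearest unstimulated region was 322 kb from the gene in Treg and 156 kb in Tconv.

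Dusp4 encodes a nuclear phosphatase acting on ERK and JNK, lies on chromosome 8 from 34807610 to 34819894, and had the largest number of regions of the 10 genes in stimulated Treg. That list held 7, a number reached by 0.909% of all protein-coding genes, and stimulated Tconv listed 1. The shared region lay 416 bases outside the lower end of the gene, with its summit at the same base in both lists, and was 11.5-fold in stimulated Treg and 11.4-fold in stimulated Tconv. Of the 6 regions in Treg without a Tconv counterpart, 3 lay inside the gene at 9.55-fold to 13.7-fold. The other 3 lay 27.97 kb (10.9-fold), 47.1 kb (27.0-fold) and 48.3 kb (9.55-fold) outside it, in the long stretch towards Saraf that holds no other protein-coding gene for 637 kb. The region at 47.1 kb was the strongest of the 14 regions of the 10 genes found in stimulated Treg without a stimulated Tconv counterpart. A further stimulated Treg region just beyond the 50 kb limit, at 51.8 kb, was 20.5-fold, so the limit cuts through a group of neighbouring sites. The genes with the same number of regions as Dusp4 in all 4 lists were Nek7, Ptger2 and Rtkn2.

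Spry1, on chromosome 3 from 37639947 to 37644599, was bound downstream of the gene and not at its promoter. All 5 stimulated Treg regions and both stimulated Tconv regions lay beyond its 3′ end, in the 69.6 kb between Spry1 and Gm5148. The region 9.73 kb beyond the end was 86.1-fold in stimulated Treg, rank 16 of 11077 by fold enrichment, and 61.4-fold in stimulated Tconv, rank 9 of 5734. Its summit differed by 3 bases between the stimulated lists, and neither unstimulated list had a region within 840 kb of the Spry1 gene body. A second shared region 30.9 kb beyond the end was 16.5-fold in stimulated Treg and 10.04-fold in stimulated Tconv. The other 3 Treg regions, 3.46, 25.3 and 27.9 kb beyond the end, had no Tconv counterpart and were 10.1-fold to 10.97-fold. Spry2, the related gene on chromosome 14, had none, and its nearest region in each of the 4 lists lay 633 kb away and was assigned to Ndfip2.

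**Figure D3:**
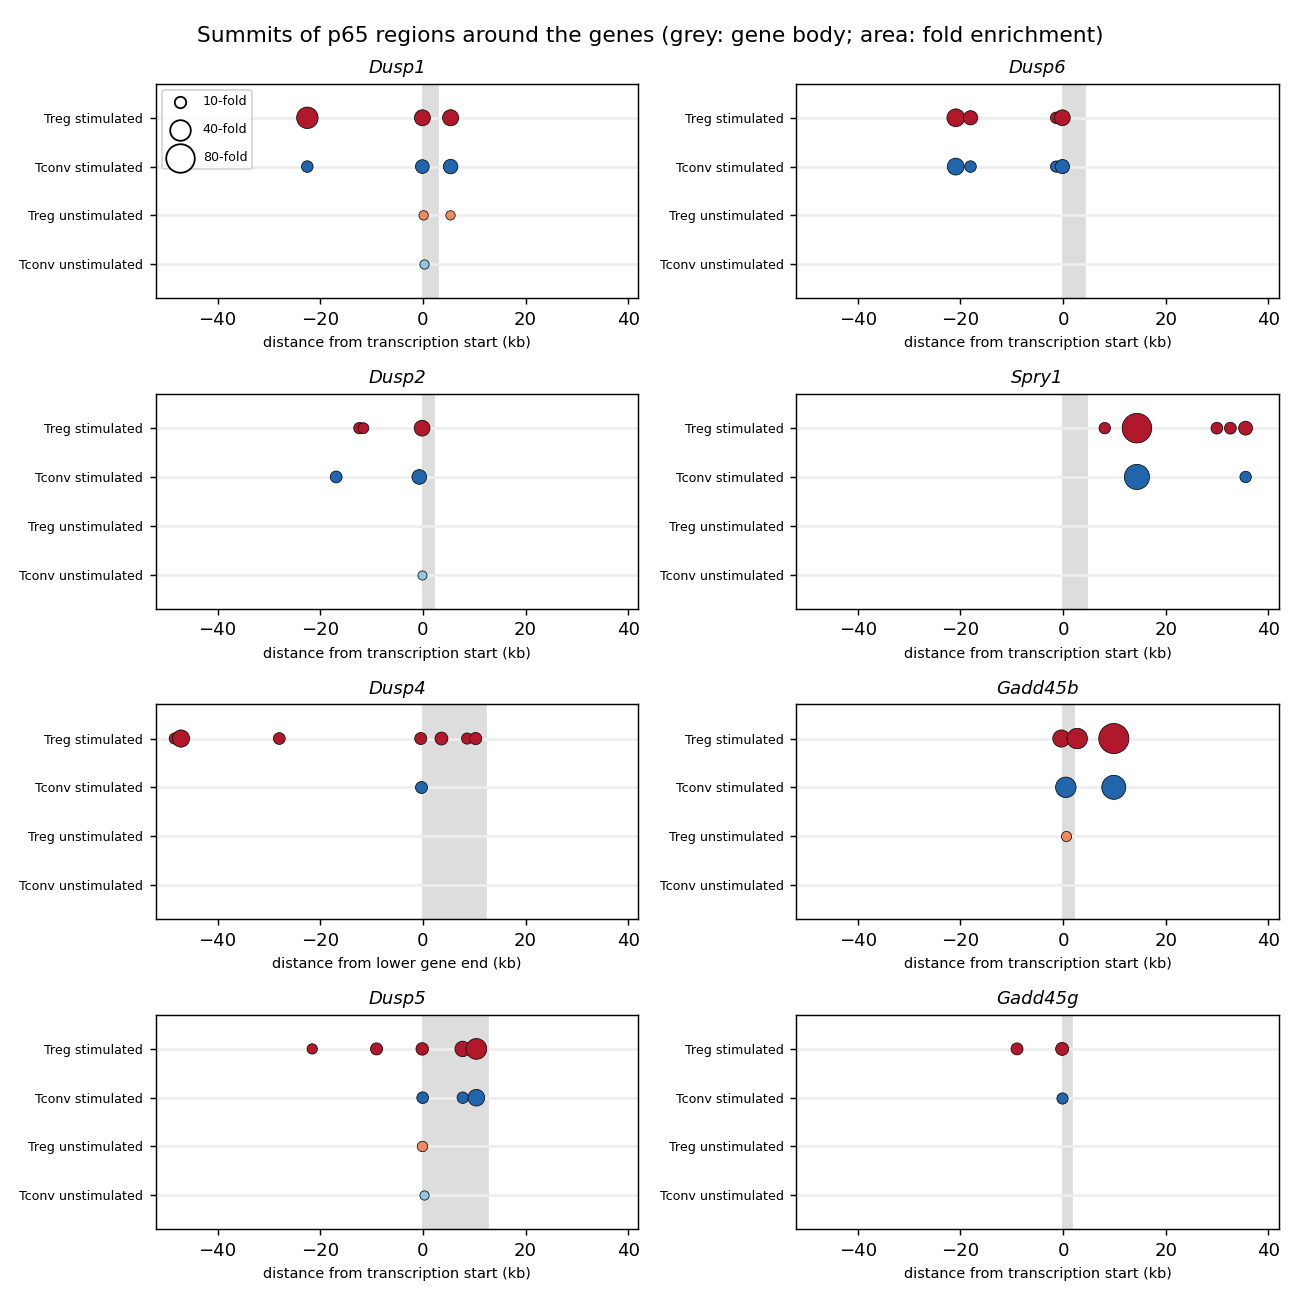
Position of each p65 region around the 8 genes that had one, as the distance of its strongest summit from the transcription start (horizontal axis, kb; for Dusp4 from the lower end of the gene body), with a row for each peak list, the area of a point for its fold enrichment and grey for the gene body. Spry1 points lie to the right of the gene, Dusp4 has 7 points in stimulated Treg and 1 in stimulated Tconv, and the unstimulated points, at Dusp1, Dusp2, Dusp5 and Gadd45b, lie at or near the genes.

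Gadd45b, which in mouse cells has been described as an NF-kB target that restrains JNK signalling, lies on chromosome 10 from 80930091 to 80932204, between Lmnb2 and Gng7, and held the region with the highest fold enrichment of the 10 genes in stimulated Treg. This region, 7.76 kb beyond the 3′ end towards Gng7, was 89.5-fold in stimulated Treg (rank 10 of 11077) and 55.6-fold in stimulated Tconv (rank 17 of 5734). Its summits lay 4 bases apart in the 2 lists. Over the gene itself, stimulated Treg had 2 regions and stimulated Tconv 1 region of 5820 bp, a difference made by merging, because both lists held 5 summits there, each Tconv summit within 89 bases of a Treg one. At the summit within the gene, 522 bases after the start in Treg and 525 bases in Tconv, fold enrichment was 42.5 in stimulated Treg and 39.5 in stimulated Tconv. At the summit 632 bases beyond the 3′ end in Treg and 623 bases in Tconv it was 39.7 in stimulated Treg and 36.1 in stimulated Tconv. Upstream, 347 bases from the start in Treg and 349 bases in Tconv, it was 26.8 in stimulated Treg and 17.9 in stimulated Tconv. The unstimulated Treg list had a single summit, of 7.30-fold, 510 bases after the start and so 12 bases from the stimulated one. Unstimulated Tconv had no Gadd45b entry, and its nearest region lay 74.9 kb away and belonged to Sppl2b.

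**Figure D4:**
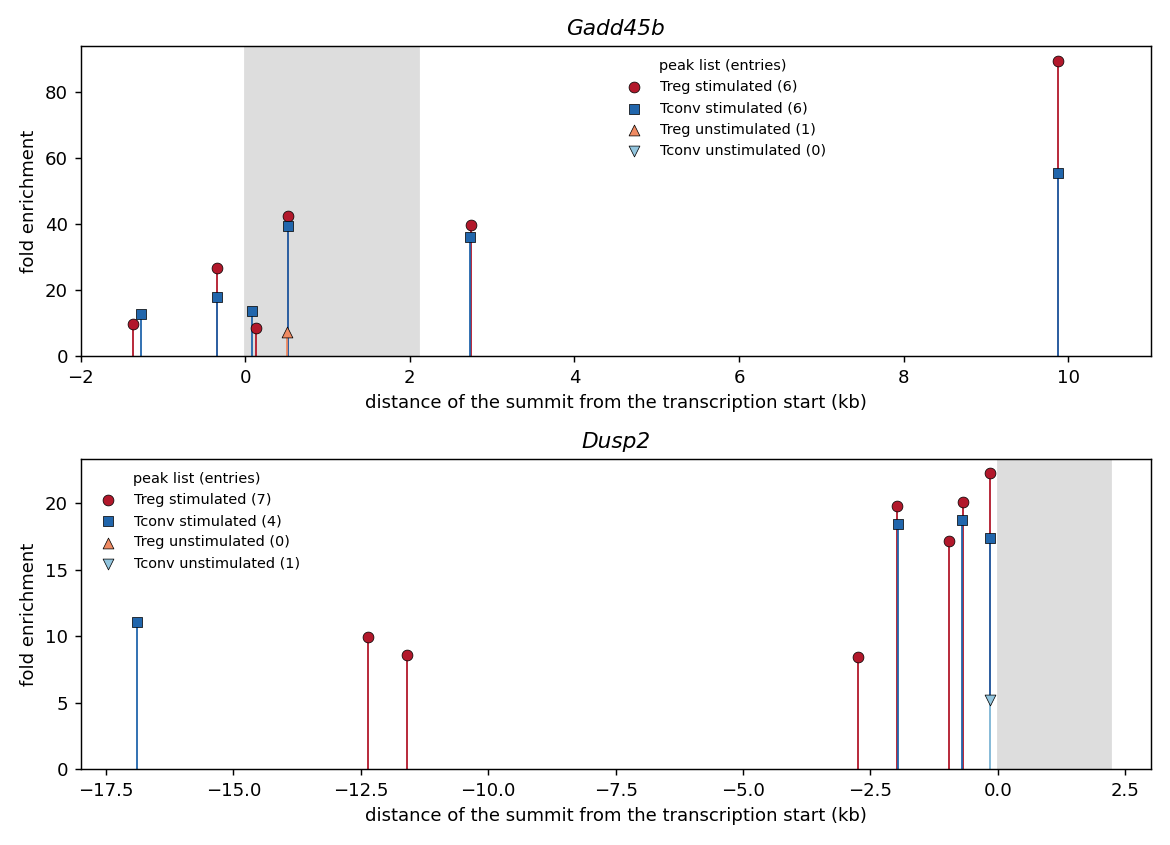
Fold enrichment (vertical axis) of every peak entry at Gadd45b (upper panel) and Dusp2 (lower panel) against the distance of its summit from the transcription start (horizontal axis, kb), by peak list, with the gene body in grey. At Gadd45b the 6 summits of stimulated Treg pair with the 6 of stimulated Tconv, the tallest standing 9.87 kb from the start, and at Dusp2 the 3 Tconv summits near the start pair with Treg summits.

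Gadd45g, on chromosome 13 from 51846675 to 51848475, had the lowest maximum of the bound genes in both stimulated lists. Its promoter region was 14.0-fold in stimulated Treg and 9.54-fold in stimulated Tconv, with the summit 194 bases upstream in Treg and 197 bases upstream in Tconv. A region 8.98 kb upstream, on the side of Sema4d, was 11.4-fold in stimulated Treg and had no Tconv counterpart. Gadd45a, on chromosome 6, had none: the nearest region in stimulated Treg lay 147 kb away at 7.998-fold, and in stimulated Tconv 229 kb away.

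Dusp1, Dusp2, Dusp5, Dusp6 and Gadd45g had a stimulated Treg summit inside the promoter window of 250 bases before to 50 after the start. The share of all promoter windows with a summit was not computed. At Gadd45b a stimulated Treg region spanned the start, with its strongest summit 347 bases upstream and so outside the window. Dusp4 has no promoter entry, so its region 416 bases outside the lower gene end could not be placed in a window. The following promoters (the 250 bases before the start, RefSeq, build GRCm38.p6, on the strand of the gene) are shown because p65 was listed there after stimulation, with the 21 bases centred on the stimulated Treg summit in capitals.
Dusp2 (chr2:127335909-127336158, plus strand): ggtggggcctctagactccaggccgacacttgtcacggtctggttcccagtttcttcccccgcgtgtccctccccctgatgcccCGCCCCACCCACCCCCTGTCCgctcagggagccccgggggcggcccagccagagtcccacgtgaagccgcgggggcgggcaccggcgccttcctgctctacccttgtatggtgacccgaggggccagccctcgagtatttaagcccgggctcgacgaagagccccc
Dusp6 (chr10:99262981-99263230, plus strand): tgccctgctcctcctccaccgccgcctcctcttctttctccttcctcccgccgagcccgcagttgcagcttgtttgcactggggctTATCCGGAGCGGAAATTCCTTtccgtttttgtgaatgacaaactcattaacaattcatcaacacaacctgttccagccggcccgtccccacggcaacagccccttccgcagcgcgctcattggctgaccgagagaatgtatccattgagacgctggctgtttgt
Gadd45g (chr13:51846425-51846674, plus strand): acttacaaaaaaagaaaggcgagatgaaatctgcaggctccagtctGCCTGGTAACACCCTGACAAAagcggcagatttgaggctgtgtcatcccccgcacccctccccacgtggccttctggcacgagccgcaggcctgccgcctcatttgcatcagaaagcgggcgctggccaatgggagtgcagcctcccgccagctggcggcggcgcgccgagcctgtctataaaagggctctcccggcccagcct
In Dusp6 the capitals contain the letters GGAAATTCC, which begin at the summit base of stimulated Treg, -154 bases from the start. These letters were chosen after the sequence had been seen, and 0.317% of all promoter windows hold them on either strand. The other 8 windows of these genes do not hold them. The windows of Spry1, Spry2, Gadd45a and Gadd45b held no summit of any list. All 9 windows had a G and C content above the median of all windows (52.7%), from 57.3% at Dusp6 to 70.7% at Dusp2, whether or not they held a summit.

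**Figure D5:**
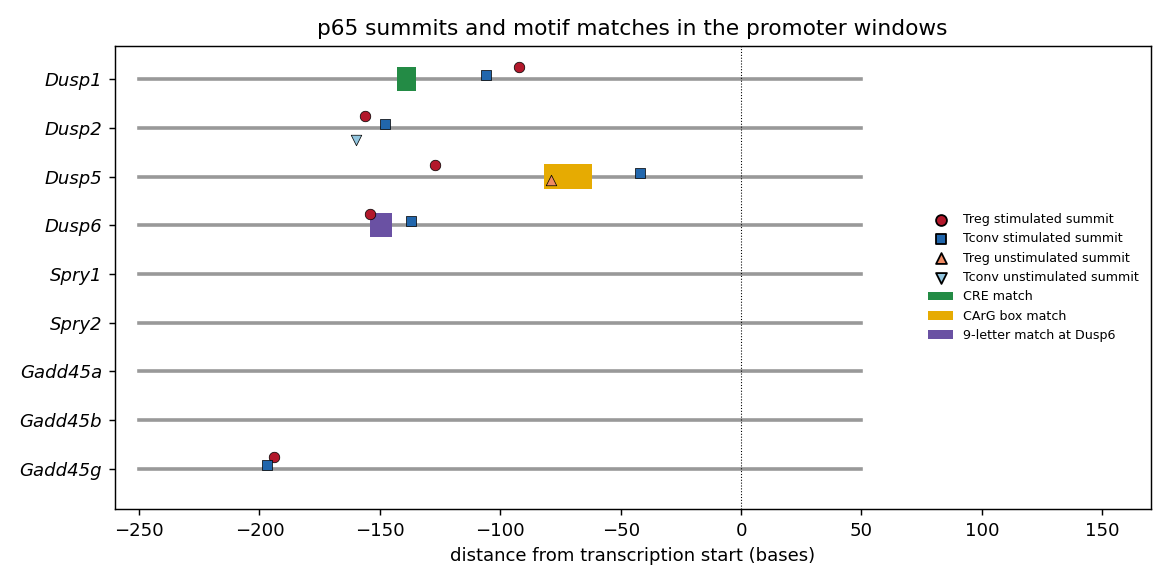
Summits of p65 peak entries (points, by peak list) and motif matches (coloured blocks) in the promoter windows of 9 of the genes, as the distance from the transcription start (horizontal axis, bases). Summits of both stimulated lists fall in the windows of Dusp1, Dusp2, Dusp5, Dusp6 and Gadd45g, between 197 and 42 bases before the start, and the 4 windows of Spry1, Spry2, Gadd45a and Gadd45b hold none.

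Stimulated Treg and stimulated Tconv listed the same 8 genes, with 32 regions in Treg and 18 in Tconv. A stimulated Tconv counterpart was missing for 14 of the 32 regions in stimulated Treg (43.8%, 28.2 to 60.7%), near the 49.3% over the whole stimulated Treg list. With the lists held to equal length (3132 entries), the share was 23.1% (3 of 13 regions), where 30.2% of all regions had no counterpart. At that length stimulated Treg held regions at 7 of the 10 genes, and stimulated Tconv at 6. The share of all genes with a region at that length was not computed, so these 2 counts have no background beside them. In the full lists, the 14 regions without a counterpart were spread unevenly: 6 of 7 at Dusp4, 3 of 5 at Spry1, 2 of 3 at Dusp2, 2 of 5 at Dusp5, 1 of 2 at Gadd45g and 0 at Dusp1 (of 3), Dusp6 (of 4) and Gadd45b (of 3). The 14 had a median of 10.9-fold and reached 27.0-fold, and the 18 with a counterpart had a median of 22.5-fold and reached 89.5-fold. Of the 14, 2 had a -log10 p below 38.1, where the stimulated Tconv list ends. The same split over all stimulated Treg regions was not computed, so these values are not read as a trait of these genes. Shared sites coincided closely: 21 of the 25 stimulated Tconv entries (84.0%) had a stimulated Treg summit within 50 bases, with a median distance of 10 bases, where 87.7% of all stimulated Tconv entries did, with a median of 15 bases.

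Without stimulation the difference between the cell types at these genes came down to 3 regions. Of the 4 unstimulated Treg regions, 2 had no unstimulated Tconv counterpart (Dusp1 beyond its 3′ end and Gadd45b), where 20.6% of all unstimulated Treg regions had none. Of the 3 unstimulated Tconv regions, 1 had no unstimulated Treg counterpart (Dusp2), where 13.9% of all regions had none. With so few regions of low fold enrichment, these counts show no more than which sites passed each list's limit.

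After stimulation most regions lay more than 1 kb from the ends of protein-coding genes. In stimulated Treg, 8 of the 32 regions (25.0%, 13.3 to 42.1%) had their strongest summit closer than that, where 33.0% of all regions did. In stimulated Tconv, 7 of 18 regions (38.9%, 20.3 to 61.4%) did, where 39.0% of all regions did. In unstimulated Treg 3 of 4 regions lay there, where 70.4% of all regions did, and in unstimulated Tconv 3 of 3, where 72.2% of all regions did. The strongest stimulated Treg region lay away from the promoter at 6 of the 8 genes, the exceptions being Dusp2 and Gadd45g.

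Other genes of these pathways had p65 regions as well, and their counts are set beside the shares of all genes with a region: 25.2% in stimulated Treg, 16.5% in stimulated Tconv, 13.4% in unstimulated Treg and 12.5% in unstimulated Tconv. Of 13 further phosphatase and Sprouty-family genes, 7 had a region in stimulated Treg, 5 in stimulated Tconv, 2 in unstimulated Treg and 1 in unstimulated Tconv. These are 53.8%, 38.5%, 15.4% and 7.69% of the list, the unstimulated shares being near or below those of all genes. In stimulated Treg, Spred2, which encodes a Sprouty-related inhibitor of Raf activation, reached 25.02-fold, and the phosphatase genes Dusp16 and Dusp7 reached 16.5-fold and 13.8-fold. In stimulated Tconv, Spred2 reached 21.6-fold and Dusp16 16.4-fold. Of 26 kinases of the MAPK cascade, 18 had a region in stimulated Treg, 12 in stimulated Tconv and 10 in each unstimulated list, which are 69.2%, 46.2% and, in each unstimulated list, 38.5%. Map3k8, which encodes a kinase that activates the ERK pathway downstream of NF-kB1 p105, led with 60.7-fold in stimulated Treg and 39.2-fold in stimulated Tconv. Mapk14, which encodes p38α, followed in stimulated Tconv with 27.0-fold and was 35.4-fold in stimulated Treg, where Map3k1 reached 40.8-fold. Of 17 other stress-response genes, 12 had a region in stimulated Treg, 9 in stimulated Tconv, 5 in unstimulated Treg and 3 in unstimulated Tconv, which are 70.6%, 52.9%, 29.4% and 17.6%. The strongest lay inside Trib1, a pseudokinase gene, with 51.4-fold in stimulated Treg and 27.1-fold in stimulated Tconv. The antiproliferative genes Btg1 and Btg2 reached 41.4-fold and 35.96-fold in stimulated Treg, and Btg2 24.99-fold in stimulated Tconv.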

How the data were processed

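The data are p65 immunoprecipitations from 4 groups with 2 libraries each, and 2 input libraries. The submitters' processing notes name MACS2 2.1.1.20160309, BWA 0.7.15-r1140 and Trim Galore 0.4.1, with mm10 as the build. Per the labels' file names, replicates were pooled, blacklisted regions removed and peaks kept by a conservative reproducibility (IDR) filter. Fold enrichment (a ratio over local background), -log10 p and a score were deposited by the authors for each summit. No read numbers are given, so depth is unknown. Greater depth would lengthen a list and raise its -log10 p.

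Entries sharing at least 1 bp were merged with Python 3.11.15 and pandas 2.3.3, and the same 1 bp of overlap made regions of different lists counterparts. Gene bodies and promoter sequences came from RefSeq, assembly GRCm38.p6 (chromosome coordinates as in mm10). The table gives no strand or exons; strand and start were taken from the promoter entries, which 9 of the 10 genes have. The motif plan allowed for windows around summits, which were not analysed here. Shares carry 95% Wilson intervals. Groups have 1 list each, so no p-value is given. The matching of counterparts was tested on simulated lists, and distances to genes were checked against a direct search for a sample of stimulated Treg regions. The members, gene lists and rules were chosen with earlier results of these data known. The rule for named genes took all members, their strongest regions and neighbours, the 3 strongest genes of each further list in stimulated Treg and the 2 strongest in stimulated Tconv, and the 3 genes most like the member with the most regions. Alternatives varied the cut-off, list length, overlap, distance, assignment, merging and motif window.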

Additional observations from a re-analysis of the deposited data

How the results depend on the processing

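No paired analysis was possible because each group has 1 peak list made from both libraries, and for the same reason no library could be left out. When every list was cut at a -log10 p of 38.1, both unstimulated lists held a region at 0 of the 10 genes. The share of all genes with a region at that cut-off was not computed, so this 0 is not read as a trait of these genes. The share without an unstimulated counterpart was then 100% in stimulated Treg (30 of 30 regions, where 87.4% of all regions had none). In stimulated Tconv it was 100% as well (18 of 18, where 81.9% of all regions had none). In stimulated Tconv this share was 94.4% both with a reciprocal overlap of 50% and with a summit within 250 bp (17 of 18), where 74.7% and 70.5% of all regions had none. With lists of equal length (3132 entries), 23.1% of the stimulated Treg regions (3 of 13) had no stimulated Tconv counterpart, where 30.2% of all regions had none. Without Dusp4, left out after the data had been seen, the share in the full lists was 32.0% (8 of 25). In the full lists 49.3% of all stimulated Treg regions had no stimulated Tconv counterpart. In a window of 100 bases around the start, the matches to TGACGTCA, the CArG box and GGAAATTCC numbered 0. In the other alternatives, the numbers of genes with a region stayed within 1.5 times, and the shares within the interval, of the reported value. Fold enrichment near the end of a list and gaps in presence between lists are limited by unknown depth.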

Other observations

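Outside the 50 kb limit, with Dusp5 still the nearest protein-coding gene, a region 64.2 kb away was 23.1-fold in stimulated Treg and 21.0-fold in stimulated Tconv. A second region near it was 9.89-fold in stimulated Treg, 67.7 kb away, and 10.04-fold in stimulated Tconv, 67.5 kb away. Neither was counted for Dusp5 above.

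At Dusp1 the region 22.5 kb upstream had a second summit in stimulated Treg, 23456 bases from the gene and 25.5-fold, and 1 summit in stimulated Tconv. At Dusp6 the region 20.9 kb upstream had a second summit in stimulated Tconv, 12.1-fold and 298 bases from the nearest stimulated Treg summit, and 1 summit in stimulated Treg. Of the 25 stimulated Tconv entries, the 4 without a stimulated Treg summit within 50 bases were this one, the Dusp2 entry 16.9 kb upstream, the Dusp5 promoter entry (85 bases) and the Gadd45b entry upstream of its start (89 bases).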
